A study of Mus musculus with 6 samples.

Results

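The 10 genes described here are the core of β-catenin signalling in the pancreatic progenitor lineage: *Axin1*, *Axin2*, *Apc* and *Gsk3b* of the destruction complex, β-catenin (*Ctnnb1*) with its inhibitor *Ctnnbip1*, and the 4 TCF/LEF factors *Lef1*, *Tcf7*, *Tcf7l1* and *Tcf7l2*. They were taken by name, through their Ensembl identifiers, from the 55414 genes in the deposited mRNA counts. Each was found, and each passed the filter on low counts along with 16353 genes in all. The libraries came from sorted cells, marked by tdTomato through *Pdx1-Cre*, from the trunk of E10.5 mouse embryos, with 3 libraries from embryos that kept *mir-302* (WT) and 3 from embryos that lacked it (KO). Both groups carried the *Pdx1-Cre* transgene, which drives recombination in cells of the early *Pdx1* lineage, and the Cre-dependent tdTomato reporter at *Rosa26*. The *mir-302* deletion was present in the whole embryo and was not limited to the sorted cells. Parents were heterozygous for it, and the sources used here do not say whether a library came from 1 embryo or a pool, so p-values measure the spread between these libraries. The age was the same in all groups.

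In the absence of a Wnt signal, a complex built on the scaffolds Axin and APC holds β-catenin for phosphorylation by CK1 and GSK3, and the marked protein is degraded. When Wnt binds its receptors this complex is disabled, and β-catenin accumulates and enters the nucleus, where it binds TCF/LEF factors on target genes. *Axin2* and *Lef1* are themselves classic targets of this signal, so that their mRNA is often read as its output, whereas *Axin1*, *Apc*, *Gsk3b*, *Ctnnb1* and *Tcf7l2* transmit it. In the early pancreas, Wnt signalling from the surrounding tissue is known to influence the growth of the epithelium.

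Mature microRNAs of the deleted cluster, which also encodes miR-302a and miR-367, are shown first, since the deletion defines the comparison. The mature sequences from RefSeq (GRCm38.p6, plus strand) are given 5′ to 3′ with the seed, bases 2 to 8, in capitals. They lie at chr3:127545275-127545297, chr3:127545406-127545427 and chr3:127545665-127545687.
miR-302b-3p: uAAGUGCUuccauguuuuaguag
miR-302c-3p: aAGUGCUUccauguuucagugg
miR-302d-3p: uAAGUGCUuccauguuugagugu
miR-302b-3p and miR-302d-3p share 1 seed, and that of miR-302c-3p is the same run shifted by 1 base. Matches to the seed of miR-302b-3p were searched in 3′UTRs of GENCODE M21 (GRCm38), as AGCACTT or as GCACTTA on the transcript strand, which overlap in the longest type of match. Of the 10 genes, 3 held a match, 1 each, and 7 held none. Among all 13760 tested genes with a 3′UTR, 20.6% held at least 1, with a median 3′UTR of 1184 bases against 1450 bases for the 10 genes.

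The sites of the 3 genes are printed on the transcript strand with the match in capitals and 8 bases on each side. That of *Gsk3b* (chr16:38240596-38240619, plus strand, exonic) fills bases 35 to 42 of a 3′UTR of 5515 bases and includes the A opposite the first base of the microRNA. The sites of *Lef1* (chr3:131224070-131224092, plus strand, bases 1009 to 1015 of 1287) and *Tcf7* (chr11:52252453-52252475, minus strand, bases 1416 to 1422 of 1512) lack it.
Gsk3b site: gaaagaccAGCACTTActtgagtg
Lef1 site: aaaagcccAGCACTTgaattgtt
Tcf7 site: ataaccccAGCACTTgcgagata
The 3 genes with a site were among those whose WT and KO libraries overlapped, as described below. A match is a stretch of letters, and whether these sites are bound in this tissue was not measured.

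Total counts per library ran from 17352498 to 26634523. The targeted microRNA genes gave no check of the labels in these mRNA counts: 4 of the 5 precursors of the cluster had 0 counts in each library and the other, *Mir302d*, had 2 counts in KO replicate 3. Progenitor markers were plainly present. *Pdx1* stood between 73.1 and 107.5 CPM (counts scaled to library size, with TMM factors for composition), and 12 progenitor markers summed to 868 to 1170 CPM in the 6 libraries. Other cell types were present too. Of 12 mesenchyme markers none was at 0 in all libraries, and the CPM of the list summed to 518, 193 and 1090 in the WT libraries, in order of replicate number, and to 1089, 51.4 and 1053 in the KO libraries. *Col1a1* and *Col3a1* were at 0 in KO replicate 2. The sum of 9 primitive blood genes, mostly hemoglobins, reached 15960 CPM in WT replicate 3, against 6396 in KO replicate 1, 339 in KO replicate 3 and at most 4.02 in the others. Values below are given in order of replicate number. The 7 liver markers summed to 987 to 2171 CPM, the 8 gut endoderm markers to 120 to 271 CPM, the 8 neural markers, of which *Sox1* was at 0, to 70.6 to 218 CPM, the 7 endothelial markers to 12.4 to 39.5 CPM and the 6 white blood cell markers to 0.653 to 3.28 CPM. Of the 7 gut endoderm markers tested, 4 (*Shh*, *Ihh*, *Sox2* and *Foxa1*) were higher in every KO library than in every WT library. *Cdx2*, *Cldn4* and *Osr1* of that list overlapped between the genotypes. Of the 12 progenitor markers, 2 (*Gata4* and *Gata6*) were higher in this way, beside 8.36% of all tested genes. The liver, neural, mesenchyme, endothelial and blood lists had no such gene.

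Within WT, levels can be set against each other only per length of transcript. On this scale of CPM per kilobase, *Ctnnb1* led with 264 ± 4.63 (SD, n = 3), 14.9 times the next gene, and its CPM was at the 99.5th percentile of tested genes. *Tcf7l2* followed with 17.6 ± 0.900 and *Gsk3b* with 8.03 ± 0.812. *Apc* (5.80 ± 0.0465) and *Tcf7l1* (5.56 ± 1.84) had overlapping ranges, as did *Tcf7l1* and *Ctnnbip1* (3.93 ± 1.35). *Axin1* (2.03 ± 0.264) and *Tcf7* (0.945 ± 0.0436) came next without overlap. *Lef1* (0.459 ± 0.384) and *Axin2* (0.404 ± 0.147) shared the bottom of the order, and their WT ranges overlapped. The genes commonly read as outputs were thus the scarcest of the 10.

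**Figure D1:**
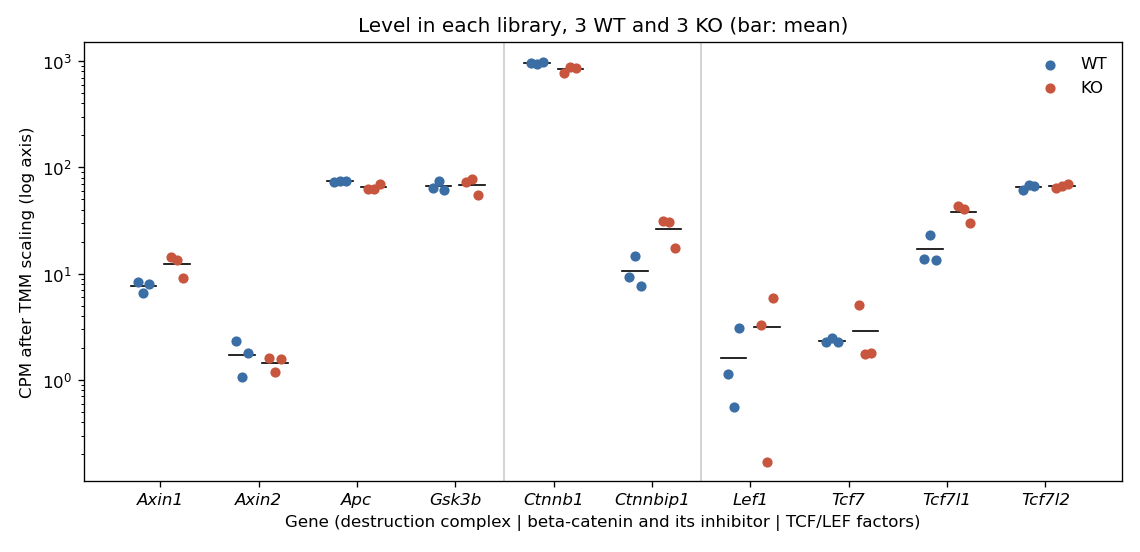
Level of each of the 10 genes in the 3 WT and 3 KO libraries, in CPM after TMM scaling on a log axis, with bars at the means. *Axin1*, *Ctnnbip1* and *Tcf7l1* lie higher in every KO library than in any WT library, *Apc* and *Ctnnb1* lie lower, and the other 5 genes overlap.

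KO was compared with WT by edgeR's quasi-likelihood test over all tested genes. None of the 10 genes passed a Benjamini-Hochberg adjusted p under 0.05 in edgeR, nor did any other gene (0%). At an unadjusted p under 0.05, 3 of the 10 were higher in KO (*Axin1*, *Ctnnbip1* and *Tcf7l1*), against 6.61% of all tested genes, and 1 was lower (*Ctnnb1*), against 4.09%. DESeq2, the tool named by the authors, called *Ctnnbip1* and *Tcf7l1* higher and none of the 10 lower, against 4.22% and 0.648% of the genes it tested. The genotypes did not overlap for 5 of the 10 genes: KO lay higher in 3 (8.36% of all tested) and lower in 2 (7.99%). The median log2 fold change of the 10 was 0.19, beside -0.02 for all tested genes.

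**Figure D2:**
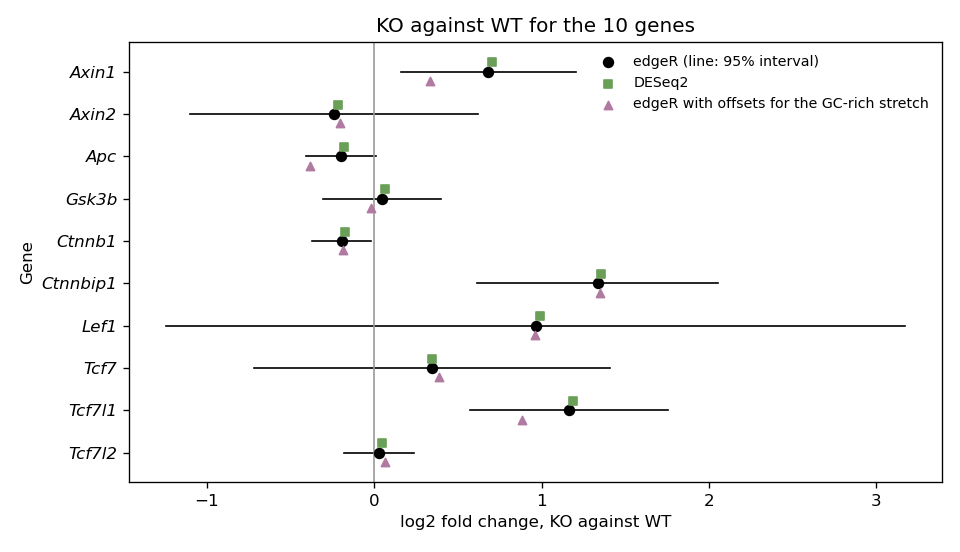
Log2 fold change of KO against WT for each gene from edgeR (circles, with lines for the 95% interval), from DESeq2 (squares) and from edgeR with offsets for the GC-rich stretch of the transcript (triangles). The intervals of *Axin1*, *Ctnnbip1*, *Tcf7l1* and *Ctnnb1* leave out 0, and those of *Lef1*, *Tcf7* and *Axin2* are the widest.

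Of the 4 genes of the destruction complex, *Axin1* was higher and *Apc* slightly lower in every KO library, and *Axin2* and *Gsk3b* overlapped between the genotypes. *Axin1* (ENSMUSG00000024182.18), the constitutively made scaffold of the complex, stood at 8.44, 6.54 and 8.01 CPM in WT and at 14.2, 13.4 and 9.20 CPM in KO. All KO libraries were above all WT libraries, with KO replicate 3 closest to WT. The means were 7.66 ± 0.997 and 12.3 ± 2.71 CPM (SD, n = 3), a log2 fold change of 0.68 with an SE of 0.22 (unadjusted p = 0.0178, edgeR adjusted p = 0.30, DESeq2 adjusted p = 0.102).

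*Axin1* has a stretch of 200 bases with 85% GC in its transcript. Over tested genes of all types, 3278 held such a stretch of at least 75% GC. Protein-coding genes with the stretch were shifted against the other protein-coding genes. The shifts (log2) were -0.14, -0.03 and -0.12 in WT and 0.13, 0.09 and 0.07 in KO. With offsets for a trend on this GC share, fitted in each library, the log2 fold change of *Axin1* was 0.33 with an SE of 0.20 (edgeR adjusted p = 0.665). Thus the *Axin1* value was more than 1.5 times smaller under that setting.

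*Axin2* (ENSMUSG00000000142.16), the Wnt-induced scaffold that feeds back on the pathway, was measured by 49, 19 and 37 reads in WT and 43, 21 and 29 reads in KO. In CPM these were 2.31, 1.06 and 1.80 in WT and 1.60, 1.20 and 1.58 in KO. The KO libraries lay inside the WT range. Its log2 fold change was -0.24 with an SE of 0.37 (edgeR adjusted p = 0.903), and the 95% interval of the fold ran from 0.466 to 1.54. Without WT replicate 1 the value turned to 0.03.

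*Apc* (ENSMUSG00000005871.16), the large scaffold mutated in colon cancer, was nearly constant in WT with 73.6, 74.6 and 74.6 CPM and stood at 62.1, 62.2 and 69.9 CPM in KO. All KO libraries were below all WT libraries. The difference was small, a log2 fold change of -0.20 with an SE of 0.09 (edgeR adjusted p = 0.493), and -0.38 with an SE of 0.09 with offsets for its stretch of 78.5% GC (unadjusted p = 0.0038, edgeR adjusted p = 0.189). An overlapping gene on the other strand, *Gm10548*, had 7 to 56 counts, and the sources used here state no use of strand in counting, so reads of this pair cannot be told apart. A pseudogene elsewhere, *Apc-ps1*, had 0 to 3 counts.

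*Gsk3b* (ENSMUSG00000022812.15), the kinase that marks β-catenin for degradation, was at 64.5, 74.2 and 61.2 CPM in WT and 73.6, 77.8 and 54.6 CPM in KO. The groups overlapped, and KO replicate 3 held the lowest value of the 6. This gave a log2 fold change of 0.04 with an SE of 0.15 (edgeR adjusted p = 0.96), with a 95% interval of the fold from 0.807 to 1.32. The sign turned with the GC offsets (-0.023) and without KO replicate 2 (-0.034). *Gsk3b* is the gene with the longest seed match to miR-302b-3p shown above.

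β-catenin and its inhibitor differed in opposite directions, with the larger difference in the inhibitor. *Ctnnb1* (ENSMUSG00000006932.18), which encodes β-catenin, was at 951, 940.6 and 973 CPM in WT and at 766, 875 and 862 CPM in KO. Every KO library was below every WT library, by a small margin. The means were 955 ± 16.8 and 834 ± 59.4 CPM (SD, n = 3), a log2 fold change of -0.19 with an SE of 0.08 (unadjusted p = 0.0344, edgeR adjusted p = 0.401, DESeq2 adjusted p = 0.49). Without WT replicate 3 and KO replicate 1, the libraries with most hemoglobin reads, it was -0.10 with an SE of 0.10. *Ulk4* overlaps *Ctnnb1* on the other strand, with 209 to 333 counts against 15356 to 20556 for *Ctnnb1*.

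*Ctnnbip1* (ENSMUSG00000028988.14) encodes ICAT, a small protein that binds β-catenin and blocks its contact with TCF factors. It was at 9.24, 14.6 and 7.72 CPM in WT and at 31.1, 30.7 and 17.6 CPM in KO. The lowest KO library was above the highest WT library. The means were 10.51 ± 3.60 and 26.5 ± 7.65 CPM (SD, n = 3), a 2.52-fold difference with a 95% interval of 1.53 to 4.15. The log2 fold change was 1.33 with an SE of 0.31 (unadjusted p = 0.00295, edgeR adjusted p = 0.142), and DESeq2 called it (adjusted p = 0.0005004). It ranked 337th by p among all tested genes.

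The *Ctnnbip1* difference was of like size under other settings. With the GC offsets it was 1.35, and over the libraries left out in turn it ran from 1.19 to 1.67. Without WT replicate 3 and KO replicate 1 it was 1.05 with an SE of 0.37. In the pair of libraries with the fewest mesenchyme reads, the *Ctnnbip1* values were 14.6 CPM (WT replicate 2) and 30.7 CPM (KO replicate 2). WT replicate 2 and KO replicate 1, whose library codes share their digits, with a meaning not given, differed 2.13-fold. Per length, β-catenin mRNA exceeded that of its inhibitor 76.0, 47.6 and 93.1 times in WT and 18.2, 21.03 and 36.1 times in KO. These ratios did not overlap, and inhibitor mRNA stayed far below that of β-catenin in every library.

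Of the TCF/LEF factors, *Tcf7l1* was higher in KO, *Tcf7l2* overlapped between the genotypes within a narrow range, and *Lef1* and *Tcf7* were low and scattered. *Tcf7l1* (ENSMUSG00000055799.14), also called TCF3, acts mainly as a repressor of Wnt targets in the absence of β-catenin. It was at 13.8, 23.4 and 13.6 CPM in WT and at 43.6, 40.2 and 29.7 CPM in KO. The groups did not overlap, and WT replicate 2 was the WT library closest to KO. The means were 16.9 ± 5.59 and 37.8 ± 7.28 CPM (SD, n = 3), a 2.24-fold difference with a 95% interval of 1.49 to 3.38.

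The log2 fold change of *Tcf7l1* was 1.16 with an SE of 0.25 (unadjusted p = 0.00214, edgeR adjusted p = 0.13), the smallest p of the 10 genes, at rank 270 of all tested. DESeq2 called it (adjusted p = 0.0002992). Of the edgeR settings run, it was called only without WT replicate 2, with a log2 fold change of 1.49 (adjusted p = 0.034), and over all leave-one-out fits the value ran from 1.04 to 1.49. Its transcript holds a stretch of 82% GC, and with the GC offsets the value was 0.88 with an SE of 0.21 (edgeR adjusted p = 0.182). Without WT replicate 3 and KO replicate 1 it was 0.94, and between WT replicate 2 and KO replicate 1 the fold was 1.87.

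*Tcf7l2* (ENSMUSG00000024985.21), also called TCF4, is the factor best known for activation of Wnt targets in gut epithelium. It was at 61.7, 67.8 and 67.2 CPM in WT and 63.9, 67.2 and 69.8 CPM in KO. The groups overlapped. The log2 fold change was 0.03 with an SE of 0.09 (edgeR adjusted p = 0.953), and the 95% interval of the fold, 0.883 to 1.18, was among the tightest of the 10 genes. Without WT replicate 1 the value was -0.012.

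*Lef1* (ENSMUSG00000027985.15), a factor that mostly activates and is itself a Wnt target, had 24, 10 and 64 reads in WT and 89, 3 and 109 reads in KO. These were 1.13, 0.559 and 3.11 CPM in WT and 3.32, 0.171 and 5.93 CPM in KO. KO thus held both the lowest and the highest library, and the groups overlapped. The log2 fold change was 0.96 with an SE of 0.94 (edgeR adjusted p = 0.821), and the 95% interval of the fold ran from 0.422 to 9.01. It was 0.23 without KO replicate 3 and 1.91 without WT replicate 3.

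The *Lef1* values went with the mesenchyme markers, whose sums are given above: WT replicate 2 and KO replicate 2 were lowest in both, and WT replicate 3, KO replicate 1 and KO replicate 3 were highest in both. In bulk libraries, fewer cells of a type and less RNA per cell cannot be told apart. The part of these cells in the *Lef1* values was not tested.

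**Figure D3:**
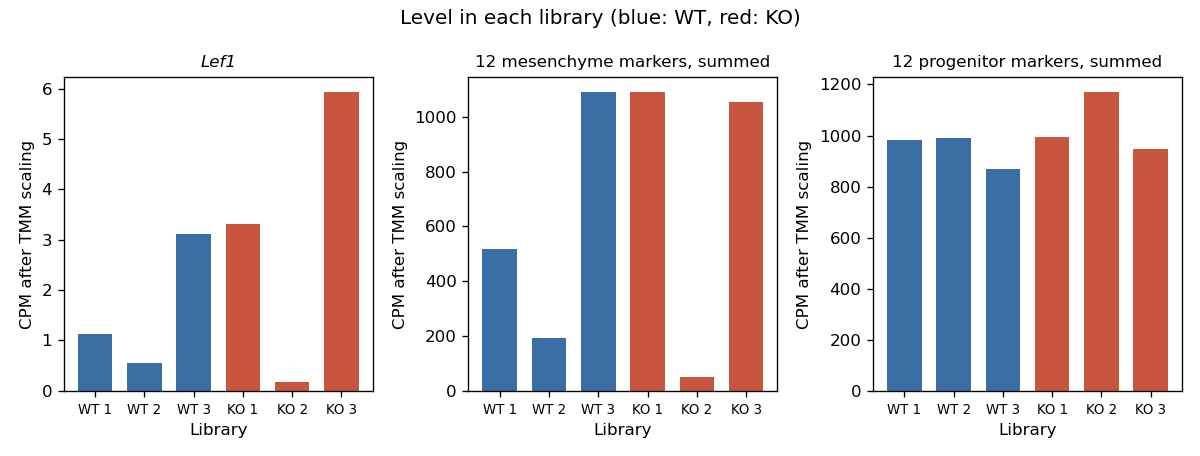
Levels in each library in CPM after TMM scaling, WT in blue and KO in red, of *Lef1* (left), of 12 mesenchyme markers summed (middle) and of 12 pancreatic progenitor markers summed (right). *Lef1* and the mesenchyme sum are lowest in KO replicate 2 and next lowest in WT replicate 2, while the progenitor sum stays between 868 and 1170 CPM.

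*Tcf7* (ENSMUSG00000000782.17), also called TCF1, is best known from T cells, where it is a Wnt target and effector. It was at 2.26, 2.46 and 2.28 CPM in WT and at 5.11, 1.77 and 1.80 CPM in KO. A single library, KO replicate 1, was above WT, and the others were below it. The log2 fold change of 0.34 with an SE of 0.45 (edgeR adjusted p = 0.881) became -0.38 without that library.

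Because the 4 factors can occupy the same DNA motif, their shares within each library were computed from CPM per kilobase. *Tcf7l2* made up 74.2%, 67.4% and 74.3% of the sum in WT and 49.8%, 56.4% and 60.7% in KO. *Tcf7l1* made up 20.3%, 28.3% and 18.3% in WT and 41.5%, 41.2% and 31.5% in KO. Neither set of shares overlapped between the genotypes. The mean share of *Tcf7l1* was 22.3% ± 5.33 in WT and 38.1% ± 5.70 in KO (SD, n = 3), and that of *Tcf7l2* was 72.0% ± 3.95 and 55.6% ± 5.49.

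The remaining factors were minor in both genotypes. *Lef1* held 1.90% ± 1.59 of the sum in WT and 2.80% ± 2.68 in KO, and *Tcf7* held 3.85% ± 0.214 and 3.52% ± 2.13. The sum of the 4 factors was 22.4, 27.1 and 24.4 CPM per kilobase in WT and 34.6, 32.1 and 31.0 in KO. As a ratio, *Tcf7l2* exceeded *Tcf7l1* 3.66, 2.38 and 4.06 times in WT and 1.20, 1.37 and 1.93 times in KO. With coding length in place of transcript length, an alternative chosen after the data were seen, the mean *Tcf7l1* share was 19.2% in WT and 33.5% in KO. These shares rest on the same libraries and the same gene as the *Tcf7l1* test, and are a description.

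**Figure D4:**
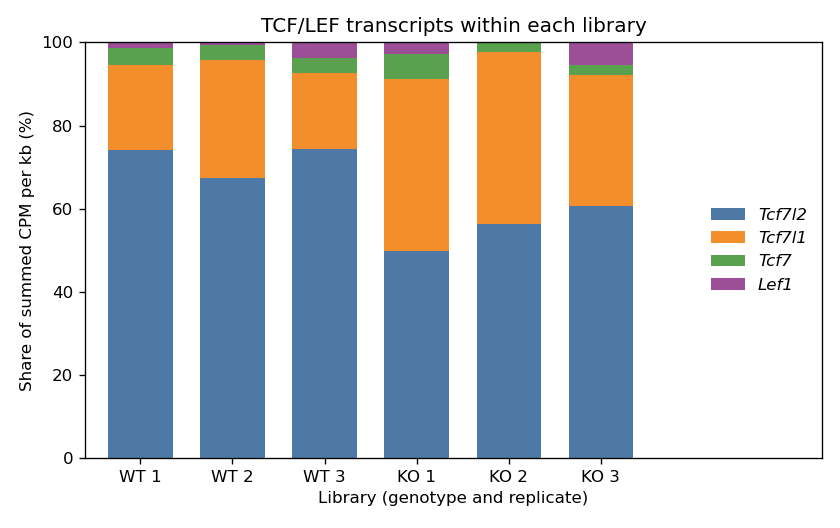
Share of each TCF/LEF gene in the summed CPM per kilobase of the 4 genes, in percent, for each library. *Tcf7l1* takes 18.3% to 28.3% in WT and 31.5% to 41.5% in KO, with *Tcf7l2* the larger share in every library.

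The genes read as pathway output can be set beside the transducers. *Axin2* did not differ beyond its spread, and *Lef1* and *Tcf7* differed by less than the spread between replicates. Among the transducers, *Tcf7l2* and *Gsk3b* overlapped, *Apc* and *Ctnnb1* had small log2 fold changes of -0.20 and -0.19, and *Axin1* had one of 0.68. Per length, *Axin1* exceeded *Axin2* 4.12, 6.95 and 5.03 times in WT and 10.02, 12.7 and 6.57 times in KO, a pair of ranges that overlapped. The 2 genes with the largest separated differences, *Ctnnbip1* and *Tcf7l1*, are both known as restraints on β-catenin-driven transcription.

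Promoters are shown for these 2 genes and for the 2 target genes, since the first pair differed between the genotypes in the same direction and the second pair is the usual readout. RefSeq promoters (GRCm38.p6, from 250 bases before to 50 after the start) were used for 8 of the 10 genes, and are printed on the gene's strand. *Apc* and *Axin1* were not among these 8. The motif CTTTGA, bound by TCF/LEF factors, or its reverse TCAAAG occurred in 16% of 32851 promoters of this length, and GGGCGG or its reverse CCGCCC, bound by Sp and KLF factors, in 35.7%. Matches of the TCF/LEF and Sp/KLF motifs can share at most 1 base. Matches are in capitals.
Tcf7l1, chr6:72788996-72789295, minus strand: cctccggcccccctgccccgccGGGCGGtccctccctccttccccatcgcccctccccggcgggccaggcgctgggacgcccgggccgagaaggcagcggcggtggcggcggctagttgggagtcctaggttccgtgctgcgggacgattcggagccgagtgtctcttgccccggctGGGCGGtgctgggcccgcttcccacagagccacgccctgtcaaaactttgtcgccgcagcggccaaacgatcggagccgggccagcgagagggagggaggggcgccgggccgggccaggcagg
Ctnnbip1, chr4:149517991-149518290, plus strand: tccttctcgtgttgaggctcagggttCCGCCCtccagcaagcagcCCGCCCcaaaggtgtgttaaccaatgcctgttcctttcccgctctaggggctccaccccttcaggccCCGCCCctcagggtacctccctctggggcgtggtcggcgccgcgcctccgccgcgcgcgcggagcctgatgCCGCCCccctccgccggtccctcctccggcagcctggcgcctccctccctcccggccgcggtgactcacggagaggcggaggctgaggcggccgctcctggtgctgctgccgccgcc
Axin2, chr11:108920099-108920398, plus strand: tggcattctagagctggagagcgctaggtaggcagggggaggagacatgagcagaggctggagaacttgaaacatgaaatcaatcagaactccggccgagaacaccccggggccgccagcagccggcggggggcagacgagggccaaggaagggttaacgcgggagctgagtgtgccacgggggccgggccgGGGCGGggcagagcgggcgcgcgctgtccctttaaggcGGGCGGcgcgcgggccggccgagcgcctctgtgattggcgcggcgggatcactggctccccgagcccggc
Lef1, most downstream of 4 starts, chr3:131156044-131156343, plus strand: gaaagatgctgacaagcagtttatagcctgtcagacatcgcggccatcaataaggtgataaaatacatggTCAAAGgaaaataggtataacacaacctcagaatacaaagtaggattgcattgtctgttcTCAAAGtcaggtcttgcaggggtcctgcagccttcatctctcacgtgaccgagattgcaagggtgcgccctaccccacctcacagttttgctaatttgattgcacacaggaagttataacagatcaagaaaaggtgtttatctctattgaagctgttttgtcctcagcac

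The *Tcf7l1* promoter had 75.3% GC with 2 GGGCGG matches, and the *Ctnnbip1* promoter printed here 73.3% GC with 4 CCGCCC matches, while a second *Ctnnbip1* promoter had 59% GC and no match to either motif. The *Axin2* promoter had 70.0% GC with 2 matches. The median GC of all promoters was 52.7%. *Lef1* has 4 listed starts. The printed one, with 43.7% GC, was chosen because it alone held TCF/LEF matches, 2 of them, and the other 3 starts, with 51.7% to 67.3% GC, each had 1 Sp/KLF match and none of CTTTGA. The windows of *Axin2* and *Tcf7l1* thus held the same number of GGGCGG matches, and neither held CTTTGA.

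Other genes of the pathway were described from lists written by hand with earlier results of these data known. Counts over these lists are thus a description and no test of the pathway. Of 35 partners and regulators of the destruction complex, all 35 were tested, none passed edgeR's adjusted threshold, 11 were higher in KO at an unadjusted p under 0.05 (6.61% of all tested genes) and none was lower (4.09%). DESeq2 called 8 of them higher (4.22%) and none lower (0.648%). The genotypes did not overlap for 16 of them, with KO higher in 14 (8.36% of all tested) and lower in 2 (7.99%). The median log2 fold change was 0.09, and 19 of the 35 transcripts held a stretch of at least 75% GC, as did 3278 of all 16353 tested genes.

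The 4 partners with the smallest p-values were kinases, a phosphatase subunit and a regulator of Dishevelled. *Csnk1g3*, a CK1 kinase, went from 9.20 ± 2.40 to 36.3 ± 12.97 CPM (SD, n = 3; log2 fold change 1.98, edgeR adjusted p = 0.114). *Ppp2ca*, the catalytic subunit of PP2A, was at 26.8, 64.4 and 28.2 CPM in WT and 281, 206 and 119 CPM in KO (log2 fold change 2.34, edgeR adjusted p = 0.114). *Dact1*, which binds Dishevelled, had means of 7.67 and 20.3 CPM (1.41), and *Csnk1g2*, another CK1 kinase, 8.67 and 31.7 CPM (1.87). DESeq2 called all 4. With the GC offsets the log2 fold changes were 1.69 for *Csnk1g3*, 2.06 for *Ppp2ca*, 1.13 for *Dact1* and 1.91 for *Csnk1g2*. In each of the 4, WT replicate 2 was the highest WT library, as it was for *Tcf7l1* and *Ctnnbip1*. *Gsk3a*, the paralog of *Gsk3b* and named after its value was seen, had a log2 fold change of 1.49 with an SE of 0.47 (edgeR adjusted p = 0.262, DESeq2 adjusted p = 0.0117), beside 0.04 for *Gsk3b*.

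Nuclear cofactors of β-catenin and TCF showed differences in both directions. Of 35 listed, 34 were tested, 6 were higher and 3 lower at an unadjusted p under 0.05 in edgeR (6.61% and 4.09% of all tested genes), and none passed its adjusted threshold. DESeq2 called 6 higher and none lower, against 4.22% and 0.648%. The median log2 fold change was 0.06, and 22 transcripts held a GC-rich stretch, beside 3278 of all 16353. *Cdc73*, a subunit of the PAF1 complex, had means of 8.11 and 23.7 CPM in WT and KO (log2 fold change 1.55, edgeR adjusted p = 0.114). *Carm1*, an arginine methyltransferase, had 26.6 and 58.3 CPM (1.14). The corepressors *Ctbp1* and *Tle1*, partners of repressive TCF complexes, had 54.8 and 193 CPM (1.82) and 31.1 and 66.6 CPM (1.10). All 4 were separated between the genotypes and called by DESeq2. Each held a stretch of 78% to 83% GC. With the GC offsets the values were 1.27 for *Cdc73*, 0.83 for *Carm1*, 1.68 for *Ctbp1* and 0.89 for *Tle1*. The listed paralogs *Ctbp2* (0.08), *Tle2* (0.08), *Tle3* (-0.14) and *Tle4* (-0.08) overlapped between the genotypes. *Tle5* (0.62) overlapped too, but DESeq2 called it higher (adjusted p = 0.0489, edgeR adjusted p = 0.304).

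Of 38 listed Wnt target genes, 30 were tested. *Axin2*, *Lef1* and *Tcf7* are among them, and the other 27 had a median log2 fold change of 0.21, with 18 positive. Over the 30, at an unadjusted p under 0.05, 4 were higher and 2 lower, against 6.61% and 4.09% of all tested genes, and none passed the adjusted threshold in edgeR. Of the 4, *Notum* and *Sp5* passed the filter on low counts only through the KO libraries, in which they were high. They thus had to differ, and only their reads are given. The counts and the median above include both. The others of the 4 were *Ephb3* and *Mycn* (log2 fold change 0.49, overlapping groups). The 2 lower were *Id2* and *Ccnd1* (log2 fold change -0.57, edgeR adjusted p = 0.368, overlapping groups). *Ccnd1* was at 172, 137 and 169 CPM in WT and 94.8, 145 and 81.7 CPM in KO. Neither *Mycn* nor *Ccnd1* was among the 4 targets with the smallest p. *Notum*, a secreted Wnt deacylase and feedback inhibitor, had 1, 3 and 3 reads in WT and 26, 22 and 15 in KO. *Sp5*, a transcription factor induced by Wnt, had 7, 5 and 5 reads in WT and 32, 15 and 12 in KO.

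*Ephb3*, an ephrin receptor of crypt and duct epithelium, was at 22.2, 40.7 and 25.3 CPM in WT and 73.5, 54.8 and 65.6 CPM in KO (log2 fold change 1.14, edgeR adjusted p = 0.121), and it was the only target called by DESeq2 (adjusted p = 0.0001204). *Id2*, an inhibitor of bHLH factors, had means of 430 and 351 CPM (-0.30, edgeR adjusted p = 0.346) with overlapping groups. *Ephb3* was thus separated upwards, while *Axin2* was inside the WT range.

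For 11 of the 30 targets the lowest of the 6 libraries was KO replicate 2, which is 36.7% of them, beside 21.6% of all tested genes, and KO replicate 2 was also the library with the lowest mesenchyme sum. Without that library the filter on low counts was run again. The listed targets that then passed had a median of 0.62, beside 0.22 for the 30. The part of mesenchyme cells in this value was not tested. The 10 adherens junction genes, which use β-catenin as a structural link, had a median of -0.18. At an unadjusted p under 0.05, 1 was higher (6.61% of all tested genes) and none was lower (4.09%). That gene was *Afdn*, an actin-binding junction protein, with means of 58.5 and 73.0 CPM (0.32, edgeR adjusted p = 0.313; 0.13 with offsets for its stretch of 78.5% GC). *Ctnna2*, an α-catenin, was lower in every KO library (10.54 and 8.49 CPM; -0.31, edgeR adjusted p = 0.571), whereas *Ctnna1* (0.12) and *Ctnnd1* (-0.36) overlapped.

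**Figure D5:**
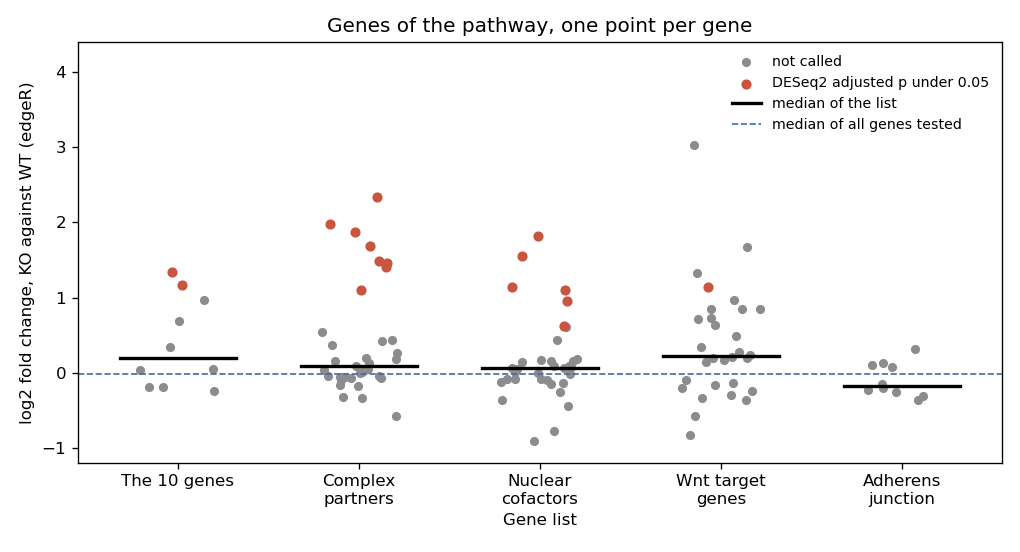
Log2 fold change of KO against WT from edgeR for each tested gene of the 10 and of 4 pathway lists, with a black bar at each median and a dashed line at the median of all tested genes. Genes with a DESeq2 adjusted p under 0.05 are red, and all of them lie above 0.

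The tested genes whose profiles over the 6 libraries were nearest to those of the 2 target genes were found by the root mean square distance of centred log2(CPM + 1). For *Axin2* they were *Knl1*, a kinetochore gene (0.0409), *Zfp955a* (0.0509) and *Cpne7* (0.0588), and for *Lef1* they were *Gli2*, a Hedgehog effector (0.166), *Cnn2* (0.217) and *Inka1* (0.221). *Gli2* was at 5.09, 3.52 and 13.2 CPM in WT and 9.32, 2.79 and 19.8 CPM in KO. Between *Axin2* and *Lef1* the distance was 0.834. This placed *Axin2* 2771st in likeness to *Lef1*, ahead of the other 8 genes, and *Lef1* 15892nd in likeness to *Axin2*. The same measure, applied after the data were seen, placed *Ctnnbip1* 39th among all genes in likeness to *Tcf7l1*, at a distance of 0.130. *Tcf7l1* was 13th in likeness to *Ctnnbip1*. Both were already known to be higher in KO, which enters this measure, so these ranks are a description. The nearest to *Tcf7l1* were *Slc25a33*, *Mgat4b* and *Rnf220*. *Rnf220* was at 46.8, 75.9 and 48.7 CPM in WT and 160, 139.5 and 106 CPM in KO. WT replicate 2 was its highest WT library and KO replicate 3 its lowest KO library, as in *Tcf7l1* and *Ctnnbip1*. Since *Rnf220* was picked for its likeness to *Tcf7l1*, this shared order follows from the choice.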

How the data were processed

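Messenger RNA of *Pdx1-Cre*-labelled cells was sequenced in 3 WT and 3 KO libraries (SMART-seq v4, Nextera XT). Counts were deposited by the authors as whole reads per gene, without normalization, after alignment to GRCm39 with STAR at default settings and counting with GenomicAlignments; versions, annotation and handling of strand are not given in the sources used here. Groups and replicate numbers came from the labels.

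From these counts, filterByExpr, TMM factors and glmQLFit with glmQLFTest (edgeR 4.0.16, R 4.3.3, legacy = FALSE) compared KO with WT, two-sided, with genotype as the only term and Benjamini-Hochberg adjustment over 16353 genes. DESeq2 1.42.0 with defaults, as named by the authors, was an alternative. Intervals are 95% intervals of the fit. Fits were tested on simulated counts. Symbols were found for 94% of identifiers. Lengths, GC content and 3′UTRs came from GENCODE M21 (GRCm38), so only printed sequences have coordinates. The shifts and offsets for the GC-rich stretch used the 84.7% of tested genes with a protein-coding transcript. Counts of genes with such a stretch used tested genes of all types.

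Other alternatives were RLE size factors, no filter on low counts, the older estimate of the spread, the replicate block, GC offsets, and libraries left out. A covariate for the library code was also run, taken from its leading letter and first digit only. The 10 genes and the lists were chosen with earlier results of these data known. Named genes were the 10, the 4 of each list with the smallest edgeR p, genes of a list called by DESeq2 where there were 5 or fewer, and the 3 nearest in profile to *Axin2* and *Lef1*. Small RNA libraries were not analysed here.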

Additional observations from a re-analysis of the deposited data

How the results depend on the processing

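Of 282 values recomputed under the alternatives, 252 kept their direction and their side of the threshold or moved less than the spread, and 6 of the 10 genes kept their direction in every alternative. DESeq2 gave 1.36 for *Ctnnbip1* and 1.19 for *Tcf7l1*, both then called, and so called 2 of the 10 genes, 8 complex partners, 6 nuclear cofactors and 1 target, against 0 in edgeR. Over all genes edgeR called 0 (1750 at an unadjusted p under 0.05), DESeq2 called 699, edgeR without a filter 4, and edgeR without WT replicate 2 called 262. The cause was not tested.

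With GC offsets, *Gsk3b* turned to -0.023 and the partners' median to 0.027. Without WT replicate 3 and KO replicate 1, *Gsk3b* was -0.042, *Tcf7* -0.38, *Tcf7l1* 0.94 and *Tcf7l2* 0.11, and the medians were 0.031 for the 10 genes, 0.048 for partners and -0.026 for adherens junction genes. Leaving out 1 library at a time, the log2 fold change ran from -0.46 to 0.028 for *Axin2*, from -0.034 to 0.22 for *Gsk3b*, from -0.38 to 0.62 for *Tcf7*, from 1.04 to 1.49 for *Tcf7l1* and from -0.012 to 0.08 for *Tcf7l2*. The sign turned without WT replicate 1 for *Axin2* and *Tcf7l2*, without KO replicate 2 for *Gsk3b* and without KO replicate 1 for *Tcf7*. Calls ran from 0 to 1 for the 10 genes, 0 to 5 for partners, 0 to 3 for cofactors and 0 to 1 for targets, the highest each time without WT replicate 2. Medians ran from 0.041 to 0.33 for the 10 genes, 0.074 to 0.14 for partners, 0.032 to 0.13 for cofactors, 0.20 to 0.62 for targets and -0.22 to 0.0068 for adherens junction genes.

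Deviations of same-numbered WT and KO libraries from their group means had correlations of -0.21, 0.30 and 0.08. The same number was the best match for replicate 2 only. With 3 libraries per group, this cannot settle whether the numbers pair them. With the replicate block, edgeR called 0 genes and 1733 had an unadjusted p under 0.05, and *Tcf7l1* was at 1.19 and *Ctnnbip1* at 1.34. RefSeq coding length was not run. *Axin2*, *Lef1* and *Tcf7* had the widest intervals. For *Lef1* counting error alone gave a fold interval of 1.53 to 2.51, narrower than that of the fit.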
